A study of Homo sapiens with 4 samples.

Results

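The integrated stress response was followed through 10 genes: the transcription factors ATF4, ATF3 and DDIT3, the regulators TRIB3, DDIT4 and SESN2, and the enzymes CHAC1, CTH, ASNS and PSAT1. They were taken by gene symbol from a written list, and 10 of 10 were found among the 18417 genes with a symbol of their own on the array. The cells were HCE, a human cell line labelled undifferentiated, in a study of the corneal epithelium, grown in Occulife medium and plated at 100000 per well of a 12-well plate. All were transfected with siRNA at 20 nM and collected 48 hours later. The 2 scramble control samples received a non-targeting control pool, and the 2 siKLF7 samples received 1 pool of siRNAs against KLF7, a zinc finger transcription factor. Nothing in the labels tells separate cultures from repeats of 1 culture, so part of the spread between the deposited samples may be technical. Each p-value from a linear model also borrows spread from all genes. A fit with a single control array holds no spread between controls, and its p-values rest mostly on that borrowed spread.

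In this pathway, kinases that sense stress in the endoplasmic reticulum, lack of amino acids, double-stranded RNA or lack of haem phosphorylate the initiation factor eIF2. General translation slows, while the mRNA of ATF4 is translated more. ATF4 protein, often paired with a C/EBP factor, then switches on genes for amino acid synthesis, amino acid uptake and tRNA charging, and a feedback arm that ends the response. ATF4 is thus controlled largely at translation, which an mRNA array does not measure.

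Composite sites that ATF4 binds with C/EBP factors have the core TGATGNAA, where N is any base. RefSeq windows of the 250 bases before each listed start site (GRCh38.p14) were available for all 10 genes, 16 windows in all, and were searched on both strands. The core was found in 3 of the 10 genes, against 3.89% of 27303 genes with a window. These shares are not a test, because the 10 genes were listed as parts of the ATF4 response. Windows per gene also differed, with 16 for the 10 genes and 35114 for the 27303. The windows with a match are shown 5′ to 3′ on the gene's strand, with the match in capitals. Of these genes CHAC1 fell furthest below scramble control replicate 2, ASNS stood close to it, and ATF3 lay between. Genes without a match spanned a like range, with CTH at -0.60 and ATF4 at -0.05 log2 units from that array. A link of match to level was not tested.

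CHAC1 (chr15:40953221-40953470, plus strand): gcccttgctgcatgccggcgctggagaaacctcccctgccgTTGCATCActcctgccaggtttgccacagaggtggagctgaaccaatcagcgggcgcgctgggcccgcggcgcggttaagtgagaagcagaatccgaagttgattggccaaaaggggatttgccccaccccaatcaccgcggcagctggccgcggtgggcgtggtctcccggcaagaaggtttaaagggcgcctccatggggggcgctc

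ASNS (chr7:97872409-97872658, minus strand): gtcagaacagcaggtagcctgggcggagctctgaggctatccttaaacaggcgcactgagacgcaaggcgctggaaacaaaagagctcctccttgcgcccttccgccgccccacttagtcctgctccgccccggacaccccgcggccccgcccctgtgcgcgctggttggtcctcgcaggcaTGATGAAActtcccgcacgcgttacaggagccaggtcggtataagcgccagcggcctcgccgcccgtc

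ATF3 (chr1:212565157-212565406, plus strand): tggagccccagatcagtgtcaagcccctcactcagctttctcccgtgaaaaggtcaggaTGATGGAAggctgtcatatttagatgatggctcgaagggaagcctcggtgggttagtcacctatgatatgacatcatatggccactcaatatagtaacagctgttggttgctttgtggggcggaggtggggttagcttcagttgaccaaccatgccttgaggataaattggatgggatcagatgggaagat

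In CHAC1 the match lay 209 to 202 bases before the start and reads TGATGCAA on the opposite strand. In ASNS it lay 68 to 61 bases before the start and in ATF3 191 to 184 bases before, both on the gene's own strand. The cAMP response element TGACGTCA was found in 0 of the 10 genes, against 2.03% of genes. The AP-1 sequence TGANTCA, which does not overlap the other cores, was found in DDIT3 alone among the 10, against 8.06% of genes. A match describes the letters and is not evidence of binding, and no match says only that these letters are not in this window.

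The arrays were checked first. Levels are log2(signal + 16), where the signal is the deposited linear value of a gene's probe set. Differences are siKLF7 minus control in log2 units, with two-sided tests from limma, a linear model fitted across all genes with Benjamini-Hochberg adjustment, and a threshold of 0.05. KLF7 stood at 12.19 and 11.52 in scramble control replicates 1 and 2 and at 10.56 and 10.15 in siKLF7 replicates 1 and 2, so the groups did not overlap. The log2 difference was -1.50 (SE 0.28, limma adjusted p = 0.639), and an exact permutation test (two-sided) had p = 0.333, which no split of 2 arrays against 2 can go below. Scramble control replicate 1 stood apart: it correlated with the other arrays at 0.934 to 0.938 across genes, against 0.990 to 0.994 among those 3. The basal keratin genes KRT5 and KRT14 were bright in all 4 arrays, while KRT3, a keratin of the differentiated cornea, had a signal of 1440 or more in 3 arrays and was near 0 in scramble control replicate 1. The summed signal of 9 markers of stratified and corneal epithelium was 25924 and 35058 in the controls and 38803 and 41517 after siKLF7. Of these 9 markers 7 had both siKLF7 arrays above both controls, against 16.3% of all genes. With 3 arrays 4 of the 9 rose, against 0.885% of all genes: KRT15 to 181%, KRT12 to 175%, ALDH3A1 to 157% and KRT3 to 149% of scramble control replicate 2. Markers of fibroblasts and keratocytes (8 genes) summed to 1669 and 961 in the controls and to 883 and 953 after siKLF7, the excess lying in THY1. Of these 8 genes, 6 had both siKLF7 arrays below both controls and 1 above, against 28.9% and 16.3% of all genes. The 1 above was LUM, a dim gene, with signals of 25 and 35 in the controls and 63 and 62 after siKLF7. The summed signal of 5 vascular markers was 920 to 1174 over the 4 arrays, of 4 leukocyte markers 1365 to 1855, and of 3 melanocyte markers 171 to 186. No marker of these 4 other cell types was at 0. Each comparison was therefore made on all 4 arrays and again on the 3 arrays that leave out scramble control replicate 1.

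By the probe set kept for each gene, the levels of the stress response genes did not separate siKLF7 from control samples. All 10 genes were lowest in scramble control replicate 1, and 8 of the 10 had both siKLF7 arrays between that array and scramble control replicate 2, where they were highest. Over all genes, 9.89% showed that order. The siKLF7 and control groups overlapped in every one of the 10 genes, so 0 of 10 were free of overlap, against 45.2% of all genes. A second probe set of ATF4, which was not kept, did have both siKLF7 arrays above both controls. Both siKLF7 arrays were above scramble control replicate 1 for 10 of 10 genes, against 35.2% of all genes. They were below scramble control replicate 2 for 8 of 10 and above it for 0 of 10, against 44.6% and 29.7%. Scramble control replicate 2 was at least 2-fold above replicate 1 for 4 of 10, DDIT3, CHAC1, CTH and PSAT1, against 2.95%. The controls differed from each other by 0.51 to 1.48 on the log2 scale, and for each of the 10 genes that gap was wider than the gap between the siKLF7 arrays, at most 0.44. In bulk RNA, fewer cells of a type and less RNA per cell cannot be told apart. The low array is also the one with low corneal differentiation markers and high THY1, and the part of these in the result was not tested.

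**Figure D1:**
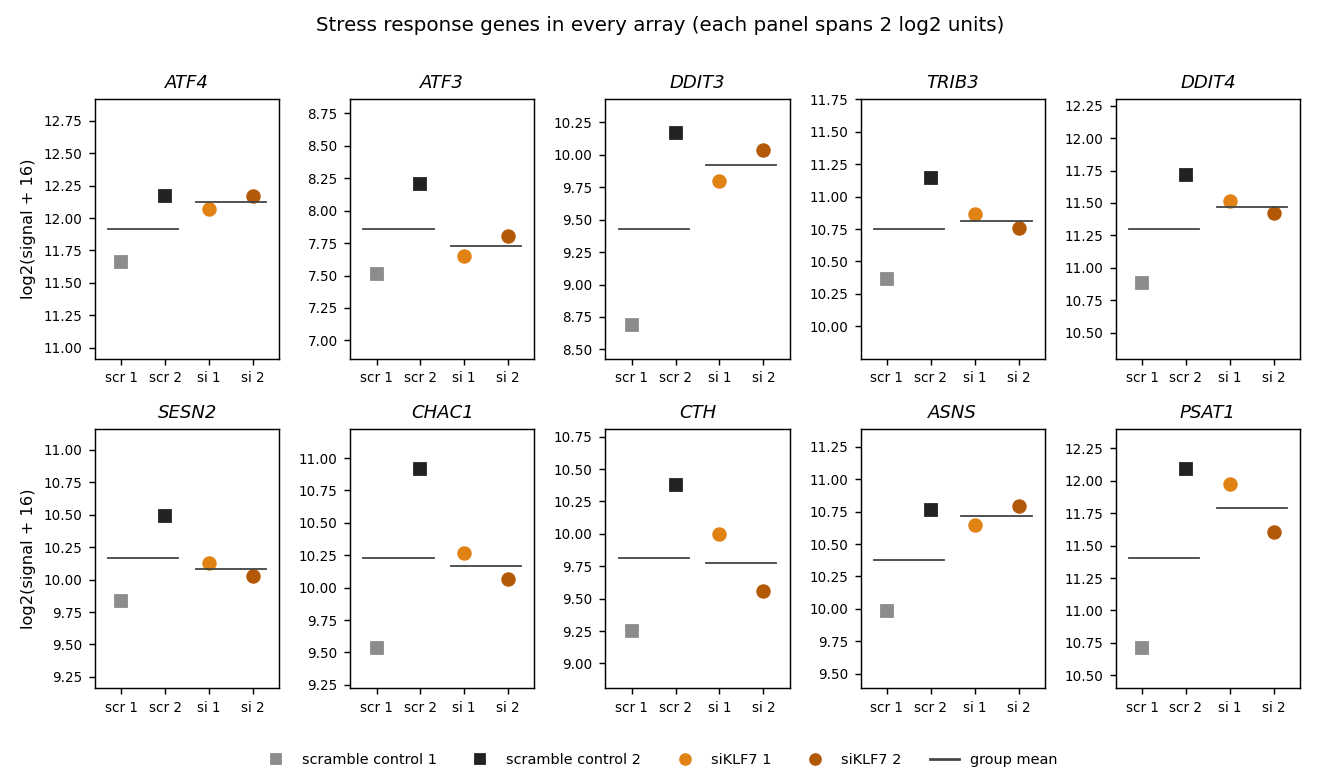
Each panel shows 1 gene as log2(signal + 16) in scramble control replicates 1 and 2 (scr, squares) and siKLF7 replicates 1 and 2 (si, circles), with a line at each group's mean and an axis spanning 2 log2 units. Scramble control replicate 1 is the lowest point in all 10 panels, and scramble control replicate 2 the highest in 8, with ATF4 and ASNS as the exceptions.

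ATF4, the factor the pathway is named for here, moved least between arrays. Its levels were 11.66 and 12.17 in the controls and 12.07 and 12.17 after siKLF7. The siKLF7 values lay next to scramble control replicate 2 and above scramble control replicate 1. The log2 difference was 0.21 with 4 arrays (95% interval -0.31 to 0.72, limma adjusted p = 0.686) and -0.05 with 3 arrays (SE 0.09, adjusted p = 0.876). A second probe set of ATF4 gave 10.46 and 10.58 in the controls and 10.69 and 10.75 after siKLF7, a difference of 0.20 with 4 arrays and 0.14 with 3. In this second probe set both siKLF7 arrays were above both controls, as they were for 16.3% of all genes, whereas in the first they overlapped the controls. The probe sets thus gave the same size of difference against both controls and opposite signs against scramble control replicate 2 alone, both small.

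DDIT3 and ATF3 encode bZIP factors induced downstream of ATF4. DDIT3, also known as CHOP and linked to cell death after prolonged stress, had the widest range of the 10 genes. It stood at 8.69 and 10.17 in the controls and 9.80 and 10.04 after siKLF7, so scramble control replicate 2 was 2.78-fold above scramble control replicate 1 and the siKLF7 arrays lay nearer the upper control. Its difference was 0.49 with 4 arrays (95% interval -0.85 to 1.83) and -0.25 with 3 (SE 0.15, limma adjusted p = 0.539). ATF3, an early stress-induced repressor, stood at 7.51 and 8.21 in the controls and 7.65 and 7.81 after siKLF7, which lay nearer the lower control. The difference was -0.13 with 4 arrays and -0.48 with 3 (SE 0.16, adjusted p = 0.147).

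The genes whose pattern over the 4 arrays was most like that of DDIT3 were VGLL1, VNN3P and KRT17P5. Their distances from it, over log2 values centred on each gene's mean, were 0.04, 0.10 and 0.12. VGLL1 stood at 8.07 and 9.53 in the controls and 9.17 and 9.46 after siKLF7. This is a description over 4 arrays, in which the low value of scramble control replicate 1 sets most of the pattern.

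TRIB3, DDIT4 and SESN2 encode brakes on growth and on the response itself. TRIB3, a pseudokinase that restrains ATF4 and AKT signalling, stood at 10.36 and 11.14 in the controls and 10.86 and 10.76 after siKLF7. DDIT4, an inhibitor of mTORC1 also called REDD1, stood at 10.89 and 11.72 against 11.52 and 11.42. SESN2, a leucine sensor that also restrains mTORC1, stood at 9.84 and 10.49 against 10.13 and 10.03. In all 3 genes the siKLF7 pair lay within the controls, and its arrays differed by 0.10 in each gene. The differences with 4 arrays were 0.06, 0.17 and -0.08, and with 3 arrays -0.33 (SE 0.12), -0.25 (SE 0.11) and -0.41 (SE 0.14). None of the 3 passed in either fit, and the smallest limma adjusted p among them was 0.161, for SESN2 with 3 arrays.

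CHAC1 and CTH, both enzymes of glutathione and cysteine handling, fell against scramble control replicate 2. CHAC1, which degrades glutathione, had signals of 726 and 1915 in the controls and 1214 and 1055 after siKLF7, or log2 levels of 9.54, 10.92, 10.26 and 10.07. With 3 arrays it fell by 0.75 on the log2 scale (SE 0.14, limma adjusted p = 0.00018), or to 59.4% of scramble control replicate 2. The same siKLF7 arrays lay 0.63 above scramble control replicate 1 (SE 0.15), and with 4 arrays the difference was -0.06 (95% interval -1.31 to 1.19, adjusted p = 0.960).

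CTH, which makes cysteine from cystathionine, had signals of 592 and 1311 in the controls and 1007 and 737 after siKLF7. It fell by 0.60 with 3 arrays (SE 0.15, limma adjusted p = 0.019), to 66.1% of scramble control replicate 2, and stood at -0.03 with 4 arrays (adjusted p = 0.975). Its siKLF7 arrays differed from each other by 0.44, the widest gap of the pair among the 10 genes. With a prior that has no intensity trend the 3-array call of CTH was lost (adjusted p = 0.121), and that of CHAC1 was kept (adjusted p = 0.012).

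ASNS and PSAT1 make amino acids, asparagine in the first case and, by transamination, the precursor of serine in the second. ASNS stood at 9.98 and 10.76 in the controls and 10.64 and 10.79 after siKLF7, so that, as for ATF4, siKLF7 replicate 2 was just above scramble control replicate 2. PSAT1 stood at 10.71 and 12.09 against 11.98 and 11.61, with scramble control replicate 2 at 2.61-fold the level of scramble control replicate 1. The differences were 0.34 for ASNS and 0.39 for PSAT1 with 4 arrays, and -0.05 (SE 0.13) and -0.30 (SE 0.10, limma adjusted p = 0.148) with 3 arrays. PSAT1 fell with 3 arrays after quantile normalization, and with no other setting.

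With limma and 4 arrays, 0 of the 10 genes passed an adjusted p under 0.05, against 0% of all 18417 genes, and 0 of the 10 had an unadjusted p under 0.05 (1069 or 5.8% of all genes did). With 3 arrays 7 of the 10 had an unadjusted p under 0.05 (2079 or 11.3% of all genes did). After adjustment 0 rose and 2 fell, CHAC1 and CTH, where 0.885% of all genes rose and 0.69% fell. The 4 corneal markers that rose did so in this fit, and their part in the falls of CHAC1 and CTH was not tested. The median of the 10 genes was 0.11 with 4 arrays and -0.32 with 3 arrays, beside -0.05 and -0.04 over all genes. Against scramble control replicate 1 alone, the median was 0.56 and 8 of the 10 genes were called higher, all but ATF3 and SESN2, in a fit that called 13.4% of all genes higher and 13.4% lower. Both single-control fits use the same 2 siKLF7 arrays and assume that the lone control varies as they do.

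**Figure D2:**
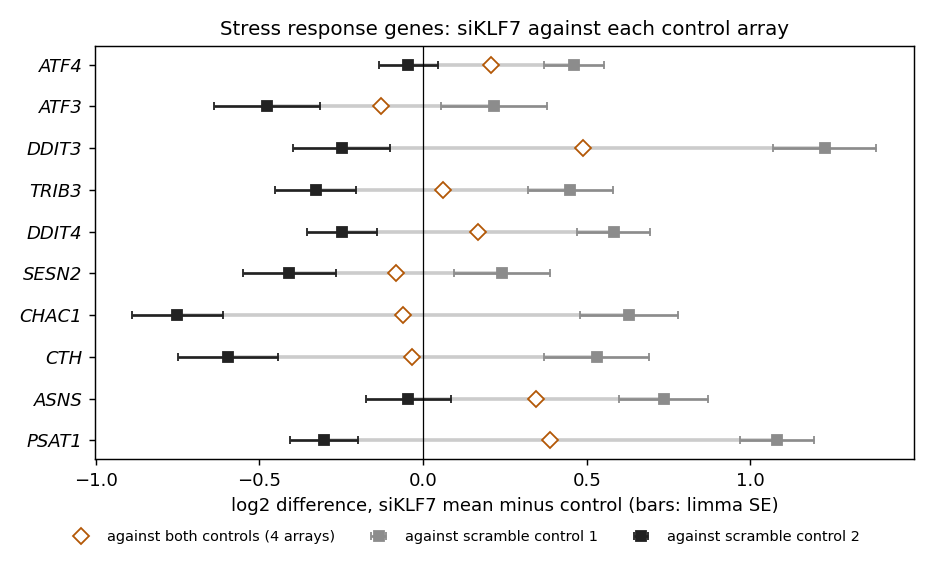
For each gene, the siKLF7 mean minus scramble control replicate 1 (grey squares) or replicate 2 (black squares), with limma SE bars, and minus both controls (open diamonds), in log2 units. All 10 grey squares lie above 0 and all 10 black squares below it, the latter at -0.05 for ATF4 and ASNS.

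Upstream, the genes of the pathway's sensors and of its translation machinery showed 0 limma calls with 4 arrays, a fit that called 0% of all genes. Of the 4 kinase, 11 eIF2 and 14 bZIP genes described next, none had an unadjusted p under 0.05 with 4 arrays (5.8% of all genes did), and 0, 2 and 2 did with 3 arrays (11.3% of all genes). Without scramble control replicate 2, a fit that called 13.4% of all genes higher and 13.4% lower, 3 of the 4 kinase genes were called lower, 2 of the 11 eIF2 genes higher, and of the 14 bZIP genes 8 higher and 1 lower. The 4 eIF2 kinase genes were all lower in scramble control replicate 2 than in replicate 1, unlike the 10 stress response genes. EIF2AK1, the haem-regulated kinase, was the 1 of these 4 below both controls in both siKLF7 arrays, an order seen in 28.9% of all genes. It stood at -0.22 with 4 arrays (SE 0.14), -0.11 with 3 (SE 0.13) and -0.33 against scramble control replicate 1. The 11 genes of eIF2, its exchange factor, its phosphatase subunits and EIF4EBP1 had medians of 0.07 and -0.04. EIF2S2, the beta subunit of eIF2, stood at 0.16 (SE 0.12) and 0.11 (SE 0.11). Of 14 genes for bZIP factors, some of them partners of ATF4, 2 had both siKLF7 arrays above both controls and 4 below, against 16.3% and 28.9% of all genes. MAF, a bZIP factor of lens and epithelial differentiation, stood at 0.44 (SE 0.17) and 0.27 (SE 0.16), and at 0.61 against scramble control replicate 1 (limma adjusted p = 0.0024).

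Genes of amino acid supply were taken by set. In serine and one-carbon metabolism, 10 of 12 measured genes had both siKLF7 arrays between the controls, against 19.6% of all genes, and 0 of 12 passed limma's threshold with 4 arrays or with 3, with an unadjusted p under 0.05 for 0 and 3 genes (5.8% and 11.3% of all genes). Without scramble control replicate 2, 6 of the 12 were called higher and 1 lower, against 13.4% of all genes each way. Of the 10 genes between the controls, 8 had scramble control replicate 1 lowest and replicate 2 highest, against 9.89% of all genes, and the rest had the opposite order. ALDH18A1, a proline synthesis enzyme, had the smallest 4-array p of the 12, at 0.20 (SE 0.15) with 4 arrays and 0.10 (SE 0.16) with 3. For tRNA charging, 13 of 13 genes were higher in scramble control replicate 2 than in replicate 1, as were 50.8% of all genes. Of these 13 genes 8 had the siKLF7 arrays between the controls, and 0 passed with 4 arrays or with 3, with 0 and 4 at an unadjusted limma p under 0.05, against 5.8% and 11.3% of all genes. Without scramble control replicate 2, 8 of the 13 were called higher and 0 lower, against 13.4% of all genes each way. LARS1, the leucine tRNA synthetase, stood at 0.22 (SE 0.16) and 0.09 (SE 0.14), and at 0.36 against scramble control replicate 1 (limma adjusted p = 0.041).

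**Figure D3:**
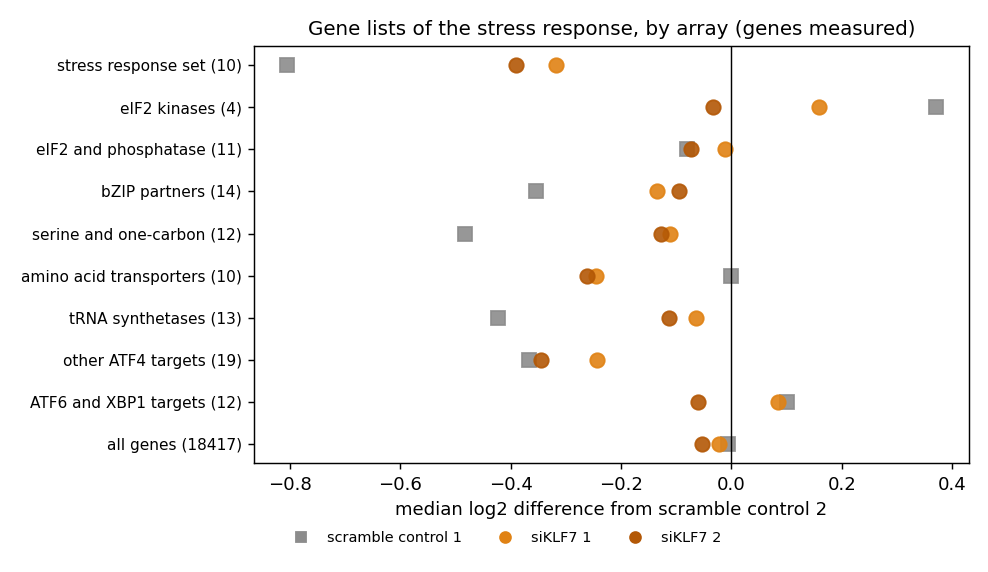
Median log2 difference from scramble control replicate 2 of each gene list, with the number of genes measured, for scramble control replicate 1 (squares) and siKLF7 replicates 1 and 2 (circles). For the stress response set the median is -0.81 in scramble control replicate 1 and -0.32 and -0.39 after siKLF7, while for the transporters it is near 0 in scramble control replicate 1, and it is -0.24 and -0.26 after siKLF7.

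Amino acid transporter genes included several that were lower after siKLF7 than in either control: 5 of 10 had both siKLF7 arrays below both controls, against 28.9% of all genes. SLC7A5, the large neutral amino acid carrier LAT1, stood at 13.04 and 12.91 in the controls and 12.40 and 12.40 after siKLF7. SLC7A1, a cationic amino acid carrier, stood at 11.19 and 11.06 against 10.60 and 10.51. SLC1A4, a carrier of alanine, serine and cysteine, had signals of 751 and 748 against 497 and 414. In these 3 genes, and in SLC3A2, the heavy chain that pairs with SLC7A5 (12.45 and 12.52 against 12.23 and 12.08), both siKLF7 arrays were below both controls.

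The 4-array differences were -0.57 for SLC7A5 (95% interval -0.82 to -0.32), -0.57 for SLC7A1, -0.70 for SLC1A4 and -0.33 for SLC3A2. These were the 4 of the 10 transporter genes with an unadjusted limma p under 0.05 with 4 arrays, against 5.8% of all genes. None passed after adjustment (limma adjusted p = 0.639). The 4 were named because they passed with 3 arrays, and those arrays are also in the 4-array fit. With 3 arrays all 4 fell, by 0.51 (SE 0.08), 0.50 (SE 0.13), 0.70 (SE 0.16) and 0.37 (SE 0.09), as 4 of 10 transporter genes, where 0.69% of all genes fell. The part of the 4 corneal markers that rose in this fit was not tested here either. The difference from scramble control replicate 1 alone was -0.64, -0.64, -0.71 and -0.29 for the same genes. It uses the same siKLF7 arrays as the other fits. With a prior without a trend, the 3-array call was kept for SLC1A4 (adjusted p = 0.025) and lost for SLC7A5 (0.143), SLC7A1 (0.148) and SLC3A2 (0.368). Of the remaining transporters, SLC7A11, the cystine carrier, stood at -0.07 in both fits, and SLC6A9, a glycine carrier, followed the pattern of the 10 stress response genes, with levels of 9.16 and 10.36 in the controls and 10.08 and 10.03 after siKLF7.

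**Figure D4:**
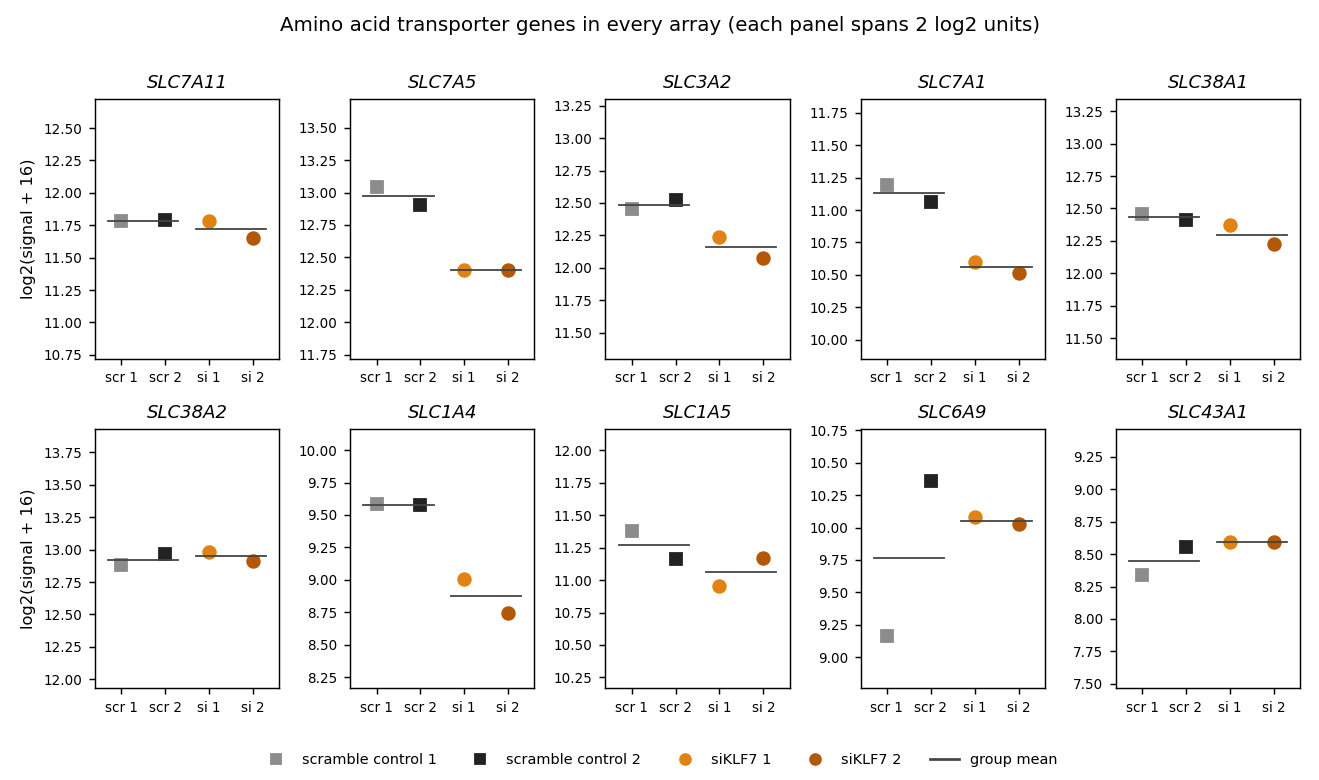
Each panel shows 1 amino acid transporter gene as log2(signal + 16) in the scramble control (scr, squares) and siKLF7 (si, circles) arrays, with a line at each group's mean and an axis spanning 2 log2 units. For SLC7A5, SLC3A2, SLC7A1, SLC38A1 and SLC1A4 both siKLF7 points lie below both control points, whereas for SLC6A9 they lie between them.

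Among 19 other genes listed as ATF4 targets, 11 had the siKLF7 arrays between the controls and 6 below both, against 19.6% and 28.9% of all genes. With 3 arrays 2 of the 19 fell, against 0.69% of all genes, and without scramble control replicate 2, 7 were called higher and 2 lower, against 13.4% each way. GDF15, a secreted stress signal, had signals of 399 and 1573 in the controls and 977 and 942 after siKLF7, the order seen in CHAC1. It fell by 0.70 with 3 arrays (SE 0.14, limma adjusted p = 0.00089) and stood at 0.26 with 4 arrays, while against scramble control replicate 1 it was called higher, by 1.23 (adjusted p = 2.18e-10). TXNIP, better known as a glucose-responsive inhibitor of thioredoxin, stood at 10.89 and 12.50 in the controls and 12.25 and 12.10 after siKLF7, between the controls. It fell by 0.33 with 3 arrays (SE 0.09, limma adjusted p = 0.028, and 0.436 without a trend), stood at 0.48 with 4 arrays, and was called higher against scramble control replicate 1, by 1.29 (adjusted p = 2.81e-20). For both genes the direction of the call thus turned with the control kept.

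The ATF6 and XBP1 arm of the endoplasmic reticulum stress response, which raises chaperones, was compared as a neighbouring programme. Its 12 genes had medians of -0.01 with 4 arrays and 0.01 with 3. Of the 12, 4 were higher in scramble control replicate 2 than in replicate 1, against 50.8% of all genes. The medians hide single genes. XBP1 itself stood at 10.80 and 11.42 in the controls and 11.15 and 10.87 after siKLF7, the order seen in CHAC1. Its difference was -0.10 with 4 arrays and -0.41 with 3 (SE 0.12), the lowest 3-array difference of the 12. XBP1 passed limma's threshold in neither fit. HSP90B1, an endoplasmic reticulum chaperone, was the 1 of these 12 genes that rose with 3 arrays, against 0.885% of all genes, by 0.35 (SE 0.09, limma adjusted p = 0.012, and 0.378 without a trend). It stood at 12.21 and 12.00 in the controls and 12.37 and 12.33 after siKLF7, above both controls. The difference was 0.25 with 4 arrays and 0.14 against scramble control replicate 1, less than against scramble control replicate 2. Whether the 10 stress response genes differ from this arm was not tested.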

How the data were processed

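Total RNA was measured on 4 whole-transcript arrays, 2 per group, grouped by sample title. The authors deposited 1 table of linear array intensity values, for which the submitters' processing notes name PLIER 2.0 and Affymetrix Expression Console 1.1.1. Whether arrays were normalized to each other is not stated there. Array medians were 185 to 194, and the number of arrays limits the precision.

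Of 33297 features, 19460 had 1 gene symbol in the platform annotation, 1754 several and 12083 none. Among features with a single symbol, the one with the highest mean log2 value was kept per gene, giving 18417 genes. The log2 rather than the linear mean was chosen after seeing the data, when it gave the number of calls an earlier analysis had reported, and the linear mean is among the alternatives. Values were analysed as log2(signal + 16), without a filter. The difference of siKLF7 from scramble control came from limma 3.58.1 (R 4.3.3; eBayes with an intensity trend, two-sided, Benjamini-Hochberg over all genes, threshold 0.05), and again without scramble control replicate 1. The 3-array fit had 1 residual and 74.2 prior degrees of freedom, so its spread comes mostly from the prior. Both fits were tested on simulated data. The 4-array fit recovered 11% of genes changed by 1 log2 unit and 68% of those changed by 2. The 3-array fit recovered 100% of each, but it also called more unchanged genes than the 4-array fit. A lack of calls with 4 arrays therefore does not show a lack of change. The members and lists were chosen with earlier results of these data known. All 10 members and KLF7 were named. From each list, up to 4 genes that passed in either fit were named by 3-array p, or otherwise the gene with the smallest 4-array p. For the member with the widest range, the 3 nearest genes by Euclidean distance were named. SLC7A11, SLC6A9, SLC38A1, XBP1 and LUM were named after their values were seen. CBS, GPT2, CCPG1 and TP63 had no feature of their own symbol. Promoter windows are from RefSeq tables of GRCh38.p14. Alternatives were quantile normalization, median centring, removal of the dimmest 25% or 50% of genes, pseudocounts of 1 and 32, no trend, averaging the features of a gene, a replicate block and leaving out each array.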

Additional observations from a re-analysis of the deposited data

How the results depend on the processing

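The direction of the 10 stress response genes against both controls depended on which control array was kept. Leaving out 1 array at a time, the log2 difference ranged from -0.045 to 0.46 for ATF4, -0.48 to 0.22 for ATF3, -0.25 to 1.23 for DDIT3, -0.33 to 0.45 for TRIB3, -0.25 to 0.58 for DDIT4, and from -0.41 to 0.24 for SESN2, -0.75 to 0.63 for CHAC1, -0.60 to 0.53 for CTH, -0.045 to 0.73 for ASNS, -0.30 to 1.08 for PSAT1. Each gene changed sign in at least 1 of these fits: without scramble control replicate 1 all 10 were below 0, and without scramble control replicate 2 all 10 were above 0. The number of the 10 genes called ranged from 0 to 8 and the number of all genes called from 0 to 4935, with 2 and 290 without scramble control replicate 1, and 8 and 4935 without scramble control replicate 2. KLF7 ranged from -1.83 without scramble control replicate 2 to -1.16 without scramble control replicate 1, and passed in those 2 fits (adjusted p = 4.95e-23 and 1.21e-09) but not when either siKLF7 array was left out. With the replicate number as a block, 0 of the 10 genes and 0 genes in all were called, and KLF7 stood at -1.50. Same-numbered arrays deviated from their group means with a correlation of -0.04 across genes, so the numbers were not taken as pairs. With all 4 arrays, the other settings called 0 genes. With 3 arrays, quantile normalization gave 484 genes and a prior without a trend 172, with 3 and 1 of the 10 called, and the remaining settings 272 to 419 genes with the same 2, CHAC1 and CTH. The mean of both ATF4 features turned its 3-array difference to 0.00404. Keeping the feature with the highest mean linear signal, an alternative added after seeing the data, picked another feature for 5 genes, none of them among the 10, and called 289 genes with 3 arrays. The cause of these changes was not tested.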
